A study of Mus musculus with 2 samples.

Results

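The 8 genes described here, Pmp22, Mbp, Prx, Ncmap, Mag, Mal, Sox10 and S100b, are genes of myelin and of the Schwann cells that make it, and were measured in the gastrocnemius, the large muscle of the calf. They were taken by name from a list, which was chosen with earlier results of these data known. All 8 were found among the 55536 annotated genes of the gene tables and in both kinds of transcript table. Total RNA was sequenced in 2 libraries from male B6CASTF1/J mice, F1 hybrids between C57BL/6J mice and CAST/EiJ mice, at an age of 18 to 20 months. Both libraries belong to 1 group, for which the labels name no treatment or altered gene, and conditions could not be compared. The labels call them biological replicates 1 and 2 and give the males different numbers, yet list a single donor record for both. P-values below therefore compare these 2 libraries and hold counting error only. The input was 300 ng of RNA per library, with ERCC spike-ins (synthetic RNAs) of the kind meant for stranded libraries with ribosomal RNA reduced. Replicate 1 held 40795740 expected counts and replicate 2 held 44919441.

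Schwann cells wrap the axons of peripheral nerves in myelin, a stack of membrane held together by a small set of abundant proteins, and in muscle they lie along the intramuscular nerve branches and cover the nerve endings. Pmp22 and Mbp belong to compact myelin, Prx and Ncmap to the outer and non-compact layers, and Mag to the layer that faces the axon. Sox10 is the transcription factor that sets Schwann cell identity and switches on many of the myelin genes. The nerve cell bodies lie outside the muscle, so nearly all nerve RNA in a muscle sample comes from cells that accompany the axons. In whole muscle, fewer cells of a type and less RNA per cell cannot be told apart.

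Pmp22 and Ncmap each have several annotated starts, and the deposited quantifications placed their RNA at different ones. For each gene the 250 bases before the RefSeq starts at or beside the most upstream annotated start and the next one are shown. The sequences are from RefSeq on GRCm38.p6, from which windows were taken for 6 of the 8 genes. Sox10 and Mbp are named only, and the chromosome of Mbp was left out of the search. The RefSeq start of the second Pmp22 window lies 55 nt before the annotated start of Pmp22-201, and the other 3 starts shown are at the annotated position. Capitals mark each match to the GC box letters GGGCGG on either strand, and overlapping matches run together.
Pmp22 upstream start, chr11:63128732-63128981, plus strand: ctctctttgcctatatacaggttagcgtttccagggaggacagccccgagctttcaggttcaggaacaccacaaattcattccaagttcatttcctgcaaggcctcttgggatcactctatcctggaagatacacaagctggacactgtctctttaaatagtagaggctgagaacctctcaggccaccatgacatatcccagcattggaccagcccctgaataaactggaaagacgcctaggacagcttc
Pmp22 second start, chr11:63131207-63131456, plus strand: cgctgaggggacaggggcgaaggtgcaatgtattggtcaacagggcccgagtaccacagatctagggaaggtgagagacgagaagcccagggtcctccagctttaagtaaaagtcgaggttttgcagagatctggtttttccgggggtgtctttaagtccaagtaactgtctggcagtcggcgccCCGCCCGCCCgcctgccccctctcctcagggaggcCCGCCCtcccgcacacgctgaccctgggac
Ncmap upstream start, chr4:135398228-135398477, minus strand: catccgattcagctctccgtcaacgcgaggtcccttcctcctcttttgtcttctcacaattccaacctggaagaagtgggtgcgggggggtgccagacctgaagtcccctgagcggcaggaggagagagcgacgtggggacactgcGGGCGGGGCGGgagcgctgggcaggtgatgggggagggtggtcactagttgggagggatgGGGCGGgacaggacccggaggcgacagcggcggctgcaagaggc
Ncmap downstream start, chr4:135385673-135385922, minus strand: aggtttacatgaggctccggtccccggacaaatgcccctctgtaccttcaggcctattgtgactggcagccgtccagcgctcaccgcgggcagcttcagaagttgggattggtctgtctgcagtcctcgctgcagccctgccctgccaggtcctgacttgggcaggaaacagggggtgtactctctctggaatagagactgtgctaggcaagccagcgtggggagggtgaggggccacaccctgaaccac
The upstream Pmp22 window held no GC box and had a GC content of 48.8%, while the window of the second Pmp22 start held 3 matches and had a GC content of 61.2%. Pmp22 windows further downstream are not shown. They held no match (start at 63132569, GC content 64.8%) and 3 matches (start at 63132803, GC content 73.6%). In Ncmap the upstream window held 3 matches and the downstream window none. Of the 32851 windows of this length in the RefSeq table, 32.7% held a GC box. The SOX motif ACAAAG, searched on both strands, was in none of these 4 windows and in 16.5% of all windows. Among the 12 windows of the 6 genes, it was found only in the overlapping windows of the Mag starts at 30914863 and 30914922. The SOX letters ACAATG and AACAAT were also searched and were in none of the 12. Any of the 3 SOX motifs was in 29.6% of all windows. The TATA box letters TATAAA, also on both strands, were in none of the 4 windows shown and in 12.4% of all windows. A match is a description of the letters and not of a binding site.

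The genes spanned a 55.3-fold range of mean level, from Pmp22 at 11.9 TPM to Mag at 0.215 TPM (TPM is transcript abundance per unit length, scaled to the same total in each library). Their levels summed to 22.7 TPM in replicate 1 and 32.6 TPM in replicate 2, a mean of 27.7 ± 6.96 TPM (SD, n = 2). Mbp and Pmp22 together held 84.8% of that sum in replicate 1 and 79.0% in replicate 2. A TPM of 1 or more was reached in both libraries by 3 genes (Pmp22, Mbp and Prx), by S100b in replicate 2 alone, and by none of the other 4 in either library. Of the 7 neighbouring pairs in the order of mean TPM, 6 overlapped between the libraries, and only the step from Mbp to Prx separated every library of one gene from every library of the other. The order from Prx downwards was Prx, S100b, Ncmap, Mal, Sox10 and Mag in each library and in both quantifications.

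**Figure D1:**
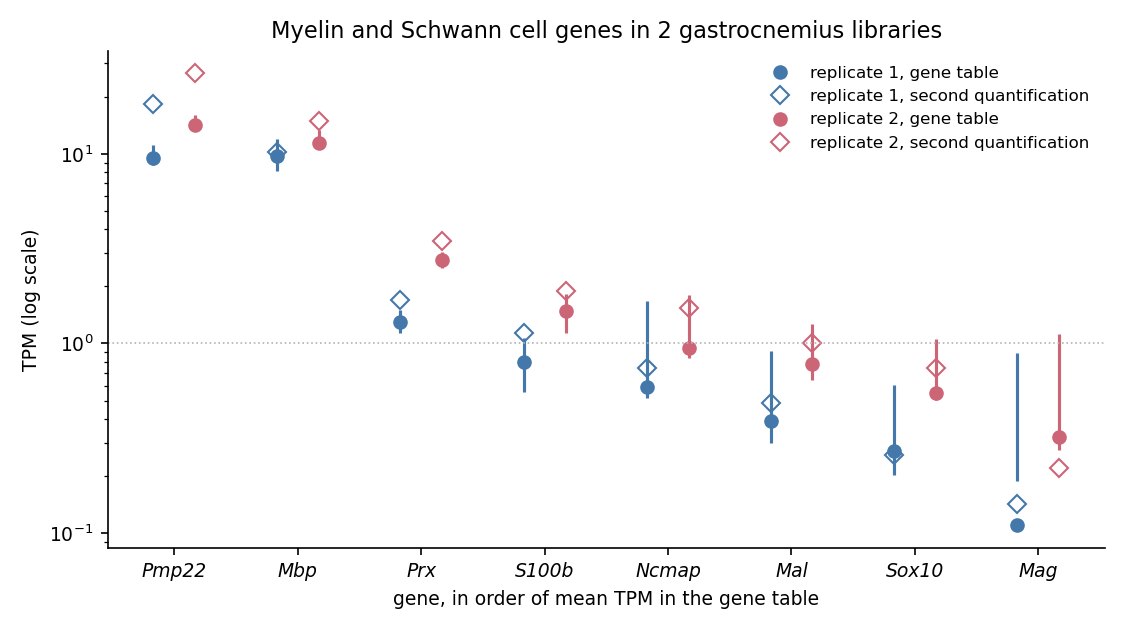
TPM of the 8 genes on a log axis, with replicate 1 in blue and replicate 2 in red. Filled circles are the gene table with the deposited credibility interval as a line, open diamonds are the second quantification, and the dotted line is a TPM of 1. Mbp and Pmp22 lie near or above 10 TPM and Mag lies lowest, at 0.11 and 0.32 TPM in the gene table.

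Every one of the 8 genes had the higher scaled count in replicate 2, beside 50.8% of all genes tested. The log2 ratio of replicate 2 over replicate 1 had a median of 0.90 over the 8 genes, with a range from 0.49 to 1.27, beside 0.01 over all 14965 genes tested. To be called, a gene needed an adjusted p (Benjamini-Hochberg) under 0.05 and a difference of at least 2-fold, in an exact binomial test of its 2 counts over all genes whose mean count reached 10. All 8 genes passed that count filter. Prx, Ncmap and Sox10, 3 of the 8, were called higher in replicate 2 and none was called higher in replicate 1. Over all genes tested the same rule called 6.18%, with 4.48% higher in replicate 2 and 1.7% higher in replicate 1. These shares stand for 670 genes higher in replicate 2 and for 255 higher in replicate 1, and with scaling on the spike-ins for 1058 and 167. The adjusted p was below 0.05 for 7 of the 8 genes, with Mag the exception, and the other 4 of those 7 missed the call on size. The share of all genes tested that passed on the adjusted p alone is not given here, so that count has no background. Small differences pass it at high counts, as for Des with a ratio of 1.07 and an adjusted p of 2.8e-47 in the exact binomial test. With edgeR's exact test, which adds the spread estimated from the same 2 libraries, none of the 8 was called. Of all 14965 genes tested, it called 220 higher in replicate 2 and 53 higher in replicate 1. For 2 of the 8 its unadjusted p was below 0.05, a count that also has no background here. The calls are therefore differences beyond counting error that were not shown to exceed the spread between libraries.

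**Figure D2:**
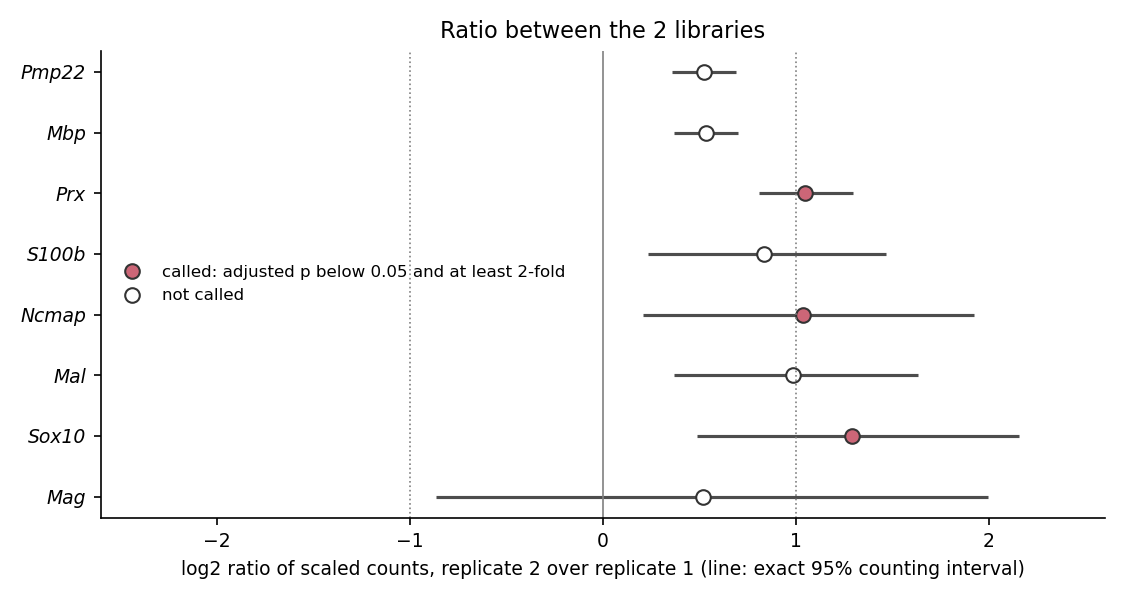
Log2 ratio of scaled counts, replicate 2 over replicate 1, for each gene in order of mean TPM, with its exact 95% counting interval and no added count. Dotted lines mark 2-fold in either direction and filled circles the called genes. All 8 ratios lie above 0, and the interval includes 0 only for Mag.

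Pmp22, a tetraspan membrane protein of compact myelin whose dosage is the best known cause of inherited demyelinating neuropathy, had the highest mean level of the 8. The gene (ENSMUSG00000018217.12, mm10 chr11:63128982-63159547, plus strand) had 484 expected counts in replicate 1 and 790 in replicate 2. Its TPM was 9.55 in replicate 1 and 14.25 in replicate 2, a mean of 11.9 ± 3.32 TPM (SD, n = 2). Replicate 2 was the higher library, and the mean placed Pmp22 at rank 3899 of 22015 nuclear protein-coding genes. The scaled count ratio was 1.44 (95% counting interval 1.28 to 1.61), with an adjusted p of 2.13e-09 in the exact binomial test, under the 2-fold needed for a call.

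The quantifications differed on where Pmp22 RNA starts. In the first transcript table the upstream start (Pmp22-204) held 13.2% of Pmp22 TPM in replicate 1 and 20.7% in replicate 2, and the second start (Pmp22-201), 2530 nt downstream, held 78.4% and 71.0%. In the second transcript table the upstream start held 65.7% and 63.7%, while the second start held 0% in replicate 1 and under a thousandth of a percent in replicate 2. The libraries were near each other within each table and the tables were far apart. The counts moved in the same way, with 401.76 and 595.67 expected counts on Pmp22-201 in the first table and 482.3 and 789.5 estimated counts on Pmp22-204 in the second. Both transcripts encode 160 residues, so the choice of start does not bear on the length of the protein. Which cells of the muscle made the Pmp22 RNA of either start was not tested. The deposited posterior SD of the count was 44.4 and 54.2 for Pmp22-201, and 0 in both libraries for the sum over the gene. In the second table Pmp22 reached 18.3 and 26.6 TPM, of which 6.28 and 9.65 TPM came from the short non-coding transcript Pmp22-205 with only 16.7 and 30.5 estimated counts.

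Mbp, the basic protein that seals the cytoplasmic faces of the myelin membrane, was close to Pmp22 in level. The gene (ENSMUSG00000041607.17, mm10 chr18:82475146-82585637, plus strand) had 485 expected counts in replicate 1 and 797 in replicate 2. Its TPM was 9.73 and 11.48, a mean of 10.6 ± 1.24 TPM (SD, n = 2), at rank 4249. The 2 Mbp values lay within the range of the 2 Pmp22 values, so the order of these 2 genes was not separated. The scaled count ratio was 1.45 (95% counting interval 1.29 to 1.62, adjusted p 8.3e-10, exact binomial test), while the TPM ratio was 1.18. The count was divided by an effective length of 1579 nt for replicate 1 and 2007 nt for replicate 2, because the tables assigned the reads to different mixtures of the 16 annotated Mbp transcripts. The scaled counts therefore give the larger difference and the TPM the smaller one for the same reads.

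Mbp transcripts fell into 2 main classes by start, 79324 nt apart. The upstream start gives the golli transcripts, known from immune and neural cells, and the downstream start gives the classic myelin transcripts. The upstream start held 19.6% of Mbp TPM in replicate 1 and 23.3% in replicate 2 in the first transcript table, and 49.6% and 38.0% in the second. In counts the upstream transcripts had 190 and 271 in the first table and 348 and 442 in the second. The classic start held 80.4% and 76.7% of TPM in the first table and 50.4% and 60.0% in the second. RNA from the upstream start was thus assigned in every library by both quantifications, but its share moved more between quantifications than between libraries. Among classic transcripts, Mbp-211 (128 residues) led the first table with 4.51 and 5.57 TPM. Mbp-212 (169 residues) was listed at 0 in replicate 1 and at 1.85 TPM in replicate 2, with credibility intervals of 0 to 0.96 and 0.83 to 2.61 TPM that overlap.

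Prx encodes periaxin, which links the Schwann cell membrane to the basal lamina through the dystroglycan complex, and it had the largest count behind any of the 3 calls. The gene (ENSMUSG00000053198.13, mm10 chr7:27499324-27520214, plus strand) had 200 expected counts in replicate 1 and 470 in replicate 2. Its TPM was 1.30 and 2.77, a mean of 2.04 ± 1.04 TPM (SD, n = 2), at rank 8913. The scaled count ratio was 2.07 (95% counting interval 1.75 to 2.45) and the adjusted p was 5.04e-18 in the exact binomial test. The interval begins below 2-fold, so the ratio passed the call threshold by less than its counting error. In the second quantification Prx had 1.70 and 3.47 TPM and was called as well.

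Prx is known to make a long form, L-periaxin, and a short form, S-periaxin. The short form (Prx-203, 148 residues) held 20.0% of Prx TPM in replicate 1 and 27.4% in replicate 2 in the first transcript table, and 25.7% and 33.1% in the second. The long transcripts, of 1252 or 1391 residues, held 80.0% and 72.6% in the first table and 74.3% and 66.9% in the second. The long form had the larger share in each library and each table. By start the tables differed, since the downstream Prx start, 8477 nt from the upstream one, held 0% of TPM in both libraries in the first table and 36.0% and 54.9% in the second. Credibility intervals of the short form were 0.09 to 0.53 TPM in replicate 1 and 0.44 to 1.12 TPM in replicate 2, which overlap. An antisense gene, Gm15541, lies opposite Prx and had 3 and 6 expected counts, and whether counting used the strand is not given in the sources used here.

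Ncmap, a membrane protein of non-compact myelin, rested on few reads. The gene (ENSMUSG00000043924.16, mm10 chr4:135369576-135398227, minus strand) had 18 expected counts in replicate 1 and 42 in replicate 2. Its TPM was 0.59 and 0.95, a mean of 0.77 ± 0.25 TPM (SD, n = 2). The scaled count ratio was 2.05 (95% counting interval 1.16 to 3.79, adjusted p 0.0291, exact binomial test). With a pseudocount of 5 in place of 0.5 the log2 ratio was 0.88 in place of 1.02, which ended the call. No RNA was assigned to the upstream Ncmap start in the first transcript table, while the second table placed 63.6% and 36.3% of Ncmap TPM there, 12555 nt from the downstream start. These shares come from 10.7 and 20.8 estimated counts. Ncmap-204 from the upstream start and Ncmap-201 from the downstream start both encode 100 residues.

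Mag, the myelin-associated glycoprotein that contacts the axon, was the lowest of the 8. The gene (ENSMUSG00000036634.15, mm10 chr7:30899176-30914873, minus strand) had 8 expected counts in replicate 1 and 13 in replicate 2. Its TPM was 0.11 and 0.32, a mean of 0.215 ± 0.148 TPM (SD, n = 2). A difference in Mag was not detectable at this depth, with a scaled count ratio of 1.43 (95% counting interval 0.55 to 3.98, adjusted p 0.681, exact binomial test). The TPM ratio of 2.91 came with effective lengths of 2318 nt (replicate 1) and 1172 nt (replicate 2). In replicate 2 the short transcript Mag-206 held 0.16 TPM with 1.31 expected counts, while Mag-201 (582 residues) held 0.14 TPM with 11.28. The longest annotated form, Mag-207 (627 residues), was listed at 0 in both libraries and both quantifications. The deposited TPM of Mag in replicate 1 lay below its own credibility interval of 0.188 to 0.894 TPM.

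Mal, a tetraspan protein of lipid rafts in myelin and in epithelial membranes, had 32 expected counts in replicate 1 and 72 in replicate 2. The gene (ENSMUSG00000027375.14, mm10 chr2:127633226-127656695, minus strand) had 0.39 and 0.78 TPM, a mean of 0.585 ± 0.276 TPM (SD, n = 2). Its ratio of 1.98 (95% counting interval 1.29 to 3.11, adjusted p 0.0044, exact binomial test) fell just short of the call. The full-length Mal-202 (153 residues) carried 31.8 of the counts in replicate 1 and all 72 in replicate 2. Mal passed 2-fold with total counts as library size (log2 ratio 1.02), with spike-in scaling (1.20) and in the second quantification (1.08).

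Sox10 had the largest ratio of the 8, on counts as low as those of Ncmap. The gene (ENSMUSG00000033006.10, mm10 chr15:79154908-79165240, minus strand) had 18 expected counts in replicate 1 and 50 in replicate 2. Its TPM was 0.27 and 0.55, a mean of 0.41 ± 0.198 TPM (SD, n = 2). The scaled count ratio was 2.45 (95% counting interval 1.40 to 4.46, adjusted p 0.0036, exact binomial test). In the second quantification Sox10 had 0.257 and 0.738 TPM, and it was called there too. Its 2 starts, 750 nt apart, exchanged all of the RNA between libraries in the second transcript table, from 100% upstream in replicate 1 to 0% in replicate 2. The first table placed 66.7% and 96.4% of TPM at the upstream start, which held 86.7% and 98.8% of the expected counts. In replicate 2 its credibility intervals were 0 to 0.49 TPM for Sox10-203 and 0 to 0.51 TPM for Sox10-201, which overlap. The deposited TPM of Sox10-203 in replicate 2, 0.53, lay above its own interval. The transcripts Sox10-203 and Sox10-201 of these starts both encode 466 residues.

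S100b, a calcium-binding protein used as a Schwann cell and glial marker and also made by some fat and cartilage cells, had 35 expected counts in replicate 1 and 71 in replicate 2. The gene (ENSMUSG00000033208.7, mm10 chr10:76253853-76261159, plus strand) has 1 annotated transcript, of 92 residues, so no reads were divided among its forms. Its TPM was 0.80 and 1.48, a mean of 1.14 ± 0.48 TPM (SD, n = 2). The ratio was 1.79 (95% counting interval 1.18 to 2.76, adjusted p 0.0156, exact binomial test), under the call, and with spike-in scaling the log2 ratio was 1.05 and the gene was called. The end of S100b overlaps Dip2a on the opposite strand, which had 210 and 269 expected counts, and reads of the overlap can be told apart only if counting used the strand.

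**Figure D3:**
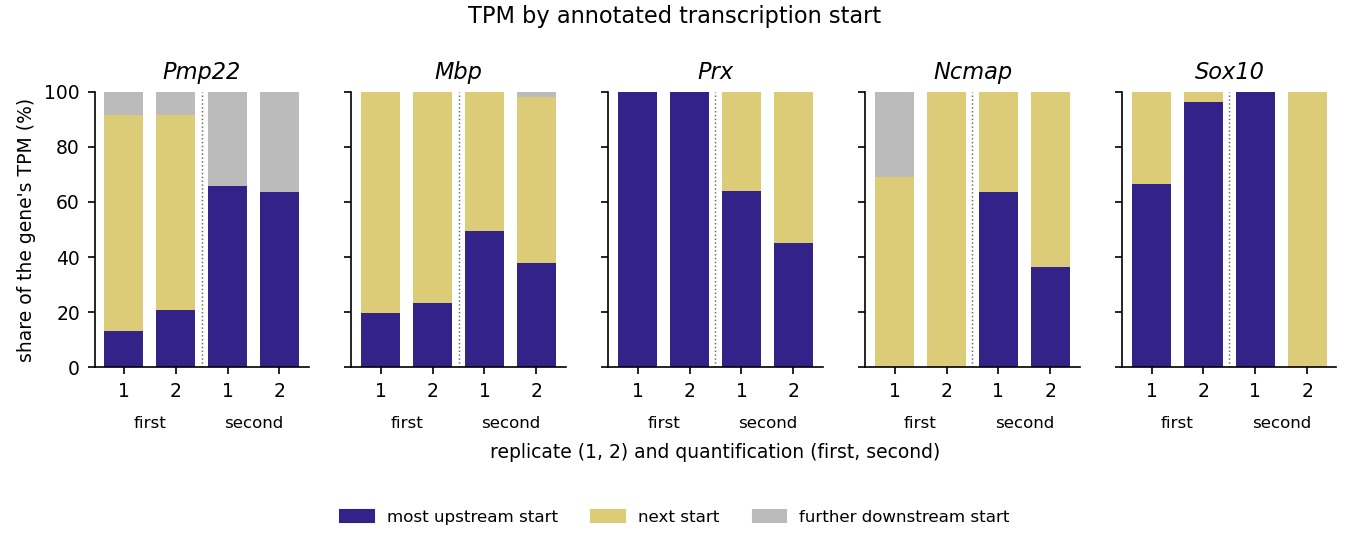
Share of each gene's TPM by annotated start in both libraries (1, 2) and both quantifications (first, second), for Pmp22, Mbp, Prx, Ncmap and Sox10. Dark blue is the most upstream start, yellow the next and grey a start further downstream. For Pmp22 the bars change between quantifications far more than between libraries, and for Sox10 the second quantification places all RNA at opposite starts in the 2 libraries.

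Estimated counts of the second table were 0.846 to 1.31 times the expected counts of the gene table over the 8 genes and both libraries. The summed TPM, a mean of 27.7 in the gene table, was 41.7 in the second quantification.

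Other genes of myelin and Schwann cells were read from 7 lists, also chosen with earlier results of these data known. The lists held 61 genes besides the 8, and 52 of them had enough counts to test. Of these 52, 8 were called higher in replicate 2 (15.4%, beside 4.48% of all genes tested) and none was called higher in replicate 1. Their median log2 ratio was 0.34, and 41 of the 52 were above 0, beside 50.8% of all genes tested. All comparisons are between the same 2 libraries, and edgeR's exact test called none of these 8.

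The list of peripheral myelin structure had 2 of 11 tested genes called, 10 above 0 and a median log2 ratio of 0.71. The 2 called genes were Gldn (gliomedin, which gathers sodium channels at the node of Ranvier), with 13 and 57 expected counts and a ratio of 3.86, and the plasmolipin gene Pllp, with 15 and 38 and a ratio of 2.23. The scaffold gene Mpp6 had the highest TPM of the list, 52.6 and 49.6, with a ratio of 0.92, and the tetraspanin gene Tspan2 had 1.95 and 2.68 TPM with a ratio of 1.64. The connexin gene Gjb1 had 1 and 17 expected counts and was too low to test.

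Of 7 tested genes of Schwann cell transcription and identity, Egr2 and Plekha4 were called, 5 were above 0 and the median log2 ratio was 0.23. Egr2 encodes the factor that drives myelination together with Sox10, and had 14 and 51 expected counts, a ratio of 3.21 (95% counting interval 1.75 to 6.28, adjusted p 1.6e-04, exact binomial test). Plekha4 had 47 and 117 expected counts and a ratio of 2.19. The most abundant genes of the list were Zeb2, with 14.4 and 20.8 TPM and a scaled count ratio of 1.06, and Yy1, with 14.5 and 16.4 TPM and a ratio of 0.94. Pou3f1, a factor of the stage before myelination, had 17 expected counts in each library. Sox2, a factor of immature Schwann cells, had 1 and 2 and was not tested.

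Of 7 tested receptors and signals, the neuregulin receptor gene Erbb3 was the only call, with 82 and 230 expected counts and a ratio of 2.47 (95% counting interval 1.91 to 3.22). Its partner Erbb2 had 91 and 124 expected counts and a ratio of 1.20. The receptor gene Ret, which had the highest TPM of the list (2.37 and 1.98), had a ratio of 0.79. The low-affinity neurotrophin receptor gene Ngfr, a marker of immature and non-myelinating Schwann cells, had 12 and 18. The median log2 ratio of this list was 0.39. Among 6 tested genes of non-myelinating and repair Schwann cells, Gdnf was called with 13 and 33 expected counts and the median was 0.47. The adhesion gene Ncam1 had the highest TPM of that list (4.84 and 4.34) and a ratio of 1.21. Scn7a had 251 and 319 expected counts and a ratio of 1.12.

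Of 7 tested genes of myelin lipid synthesis, Ugt8a, which makes galactosylceramide, was called with 9 and 45 expected counts and a ratio of 4.40 (95% counting interval 2.13 to 10.2), and the list median was 0.46. The ceramide synthase gene Cers2 led the list in level, with 6.60 and 9.31 TPM and a ratio of 1.37. Fa2h, which hydroxylates the fatty acids of the same lipids, had 15 and 24 and was not called. Of 7 tested genes of basal lamina contact, the integrin gene Itgb4 was called with 162 and 412 expected counts and a ratio of 2.24, and the list median was 0.17. Members of that list are also made by muscle fibres or vessels, such as Dag1 at 68.3 and 70.0 TPM. Which cells made the Itgb4 RNA was not tested. Of 10 tested genes of inherited neuropathy, only Egr2 was called, which also stands in the transcription list, and the median was 0.33. Fgd4 had the highest TPM, 12.1 and 9.59, with a ratio of 0.76. Gdap1, a gene of the outer mitochondrial membrane, had 1056 and 673 expected counts and a ratio of 0.56, which is a lower value in replicate 2 that missed the call on size.

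**Figure D4:**
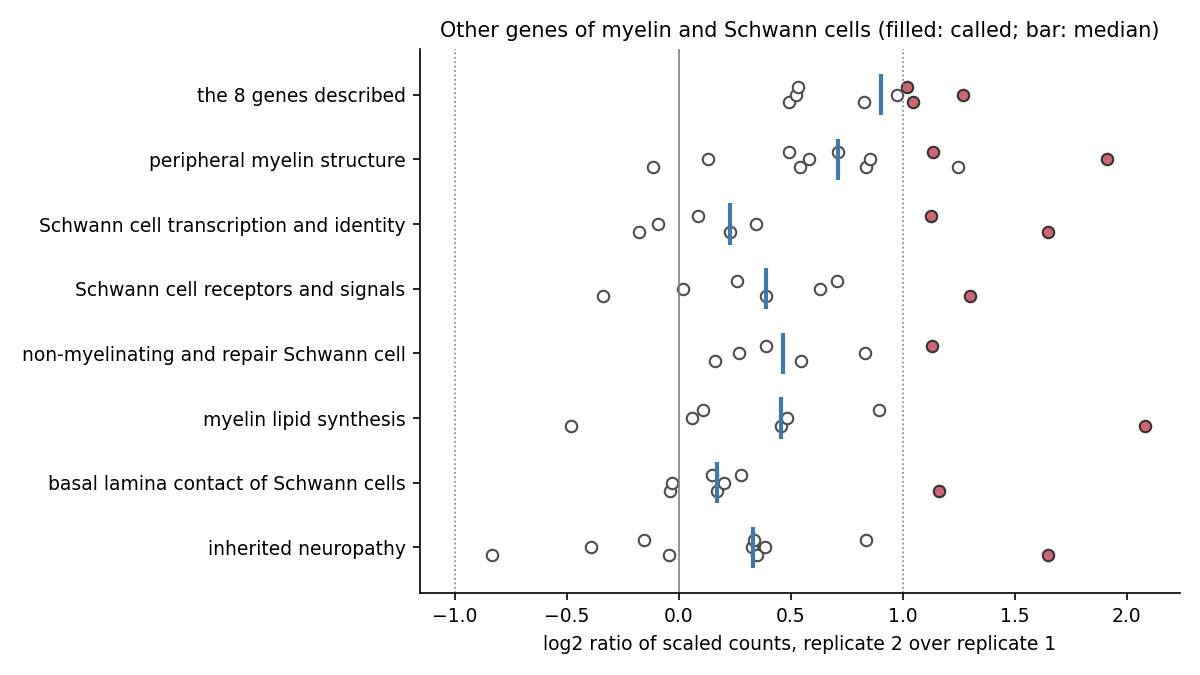
Log2 ratio of scaled counts + 0.5, replicate 2 over replicate 1, for the 8 genes and for the tested genes of the 7 lists, where some genes stand in more than 1 list. Filled circles are called genes, blue bars are medians and dotted lines mark 2-fold. Each of the 7 lists has 1 or 2 calls on the right and none on the left.

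Markers of other cell types were set beside these values. Of all genes tested, 4.48% were called higher in replicate 2 and 1.7% higher in replicate 1. The genes Olig1, Olig2, Opalin and Mobp, which are specific to oligodendrocytes, the myelin cells of the central nervous system, had 0 counts in both libraries, and Mog had 0 and 1. The 8 markers of neurons summed to 0.09 and 0.12 TPM, none had enough counts to test, and Chat and Slc18a3 were at 0. Of 7 tested genes of the perineurium and endoneurium, the sheaths of the nerve, Itgb4 and Cldn1 were called higher in replicate 2, 6 were above 0 and the median log2 ratio was 0.69. The sum of all 8 genes of that list was 7.67 TPM in replicate 1 and 11.1 TPM in replicate 2.

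Tissues other than nerve also differed between the libraries. Calls in the lists below stand beside 4.48% of all genes tested called higher in replicate 2 and 1.7% called higher in replicate 1. Among the 52 tested genes of the 7 myelin and Schwann cell lists, 15.4% were called higher in replicate 2. All 12 genes of slow muscle fibres were called higher in replicate 2, with a median log2 ratio of 3.29 and sums of 357 and 3291 TPM. Fast fibre genes, which mark the labelled tissue, summed to 108189 and 82911 TPM with a median of -0.47. Of these 12 genes, Myh2 (ratio 3.72) and Myh1 (2.20) were called higher in replicate 2 and none was called higher in replicate 1. Of 12 tested genes each, endothelial markers had 2 called and a median of 0.31, and smooth muscle and pericyte markers 2 called and a median of 0.54. Of 10 white adipocyte genes, 3 were called higher in replicate 2 (Adipoq, Lep and Car3) and 2 higher in replicate 1 (Fasn and Retn), with a median of 0.29. Their sum was 331 and 801 TPM, of which Car3, also made by slow muscle fibres, held 161 and 611 TPM. Of 6 muscle spindle genes, Myh7b (ratio 11.3), Egr3 (7.05) and Myh3 (2.15) were called higher in replicate 2 and none in replicate 1, with a median of 1.02. The spindle list summed to 163 and 120 TPM, most of it from Myh8 at 158 and 108 TPM. None of 10 fibroblast, 8 tendon, 8 macrophage or 12 neuromuscular junction genes was called in either direction, with medians of 0.16, 0.27, 0.24 and 0.11. The part of these tissues in the higher counts of the 8 genes in replicate 2 was not tested.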

How the data were processed

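Total RNA of 2 gastrocnemius libraries was analysed from gene and transcript tables deposited by the authors. The labels and the list of files name assembly mm10 and GENCODE M21, while the sources used here give neither the aligner, nor the counting programs, nor their use of strand. Per the file headers, expected counts and TPM fill the gene table and a first transcript table. The headers do not say how reads of ambiguous origin were assigned. The deposited isoform percent is the part of a gene's TPM that a transcript holds. The second transcript table holds estimated counts and TPM, also per the file headers. The deposited posterior SDs and TPM credibility interval bounds were copied as given. Reads of CAST/EiJ alleles were quantified on the C57BL/6J assembly, and the effect on these counts was not tested.

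Expected counts were rounded. Among nonzero gene counts, 83.8% were whole within 0.001 in each library. Library sizes were scaled with TMM factors (edgeR 4.0.16, R 4.3.3). A 2-sided exact binomial test (scipy 1.17.1), checked on simulated data, compared the libraries over the 14965 genes whose mean count reached 10, with Benjamini-Hochberg adjustment over all of them. Log2 ratios use scaled counts + 0.5, while ratios with intervals add nothing, and intervals cover counting error only. Spread from edgeR's common dispersion gave a biological coefficient of variation of 0.227. With 1 group, edgeR's quasi-likelihood test had nothing to compare. DESeq2 1.42.0 size factors, spike-in scaling, filters, pseudocounts and the second quantification were alternatives. Starts within 300 nt were joined into 1 start, and that grouping and the coding forms were defined after values were seen. The 8 genes and all lists were chosen with earlier results of these data known. With 2 libraries a pattern is 1 ratio, so no gene was named for likeness. Named from each list were its called genes, otherwise up to 4 of its highest mean TPM, and defining markers at 0, with Gjb1, Pou3f1, Sox2, Ngfr and Fa2h named outside that rule after their values were seen. Some genes that the rule takes are among the counts of their lists but have no values reported here.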

Additional observations from a re-analysis of the deposited data

How the results depend on the processing

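All 8 genes stayed higher in replicate 2 under every alternative in which they were tested. With spike-in scaling, which moved the median log2 ratio of all genes by 0.22, the calls were 1058 higher in replicate 2 and 167 higher in replicate 1, and 5 of the 8 genes were called. With a mean count of at least 100, these were 273 and 94, and 1 of the 3 genes still tested was called, with a median log2 ratio of 0.53. With edgeR's exact test they were 220 and 53, with 0 of the 8. With the ratio of TPM + 0.5 they were 355 and 116, with 0 of the 8 and a median of 0.49, and the added value is as large as the TPM of the lower genes. DESeq2 size factors, no filter and a pseudocount of 0.1 changed no call among the 8. The summed mean TPM was 41.7 in the second quantification, 62.0 when TPM was rescaled to nuclear protein-coding genes, and 22.7 to 32.6 with either library left out. In the second quantification the share of TPM was 29.4% for the short Prx form, 43.8% for the upstream Mbp start and 64.7% for the upstream Pmp22 start. By share of expected counts the upstream Mbp start held 36.6%. Mag was too low to test in the second quantification. Counts of 8 to 72 limit Mag, Ncmap, Sox10, Mal and S100b. No paired analysis was possible because the series has 1 group.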
